A study of Mus musculus with 16 samples.

Results

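DNA methylation was followed at 5 genes that are widely used to recognise fibroblasts: Col1a1, Col1a2, Thy1, Twist1 and Prrx1. The genes were chosen by name, and each was represented by a fixed window of the GRCm39 mouse genome. The windows were 22 kb long for Col1a1, 41 kb for Col1a2, 11 kb for Thy1, 7 kb for Twist1 and 76 kb for Prrx1. The tiles of 1 kb in which sites were listed span chr11:94826001-94842000 at Col1a1, chr6:4504001-4540000 at Col1a2, chr12:34006001-34009000 at Twist1 and chr1:163073001-163143000 at Prrx1. At Thy1 they run from position 43952001 of chromosome 9 to the end of the window. Together the windows span 157 kb, in which 588 strand-specific CpG sites were listed in at least 1 library. Of these, 174 had at least 10 reads in each of the 16 libraries and are called common sites below. They fell into 23 tiles, of which 18 held at least 3 common sites and were tested, among 94337 tested tiles of the whole genome. Col1a1 had 9 tested tiles, Prrx1 had 4, Thy1 had 3, and Col1a2 and Twist1 had 1 each, so that the account of Col1a2 and Twist1 rests on few sites. Where each tile lies within its gene (exon, intron, UTR) was not analysed here.

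The measurements are reduced representation bisulfite sequencing (RRBS), in which DNA is cut by MspI at the motif CCGG and the methylated share of reads is taken at CpGs near the cuts. The study followed mouse embryonic fibroblasts (MEFs) during conversion to pluripotent cells by a reprogramming medium, as part of work on a chemical reprogramming platform. Day 0 (D0) was the starting MEF, labelled as from 129XOG2 E13.5 embryos and used at passages 1-3, D2, D4, D6, D8, D10 and D12 were reprogramming intermediates by day in the medium, and iPSC was the induced pluripotent stem cell. Each of the 8 groups had 2 libraries, all with the same strain label, and the labels name no genetic change that sets groups apart. The iPSCs were grown on feeder cells with LIF, CHIR99021 and PD0325901, and the labels do not say whether feeder cells were removed before DNA was taken. The labels also do not say that the 2 libraries of a group came from separate cultures, so p-values measure the spread between these libraries, which may be technical. Expression was not measured in these files, so the identity of the cells could not be checked against marker transcripts, and in bulk DNA fewer cells with methylated copies and less methylation in each cell cannot be told apart.

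Col1a1 and Col1a2 encode the chains of type I collagen, the main fibrous protein that fibroblasts secrete. Thy1 encodes CD90, a surface glycoprotein used to sort fibroblasts and to follow their loss during reprogramming. Twist1 and Prrx1 encode transcription factors of mesenchymal cells, and both are active in embryonic limb and body wall mesenchyme. Methylation of CpG-rich promoters usually accompanies silencing, whereas CpGs in the body of an active gene are commonly methylated.

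The Col1a2 promoter is shown first because its CpGs were measured in D0, D12 and iPSC and differed between D12 and iPSC in the other direction than the rest of the gene's window that could be tested. RefSeq sequences upstream of the transcript start (GRCm38.p6 table) were at hand for Col1a2, Twist1 and Prrx1, 3 of the 5 genes. The 250 bases before the Col1a2 start hold 11 CpGs and 1 CCGG, the MspI motif (a palindrome, so both strands are covered). Of 32851 promoters of the same length, 64.4% had fewer CpGs and 47.1% held a CCGG. The same length held 18 CpGs at Twist1 and 4 at Prrx1, with 0 CCGG in either. The sequence reads 5′ to 3′ on the plus strand, with each CpG in capitals.
Col1a2: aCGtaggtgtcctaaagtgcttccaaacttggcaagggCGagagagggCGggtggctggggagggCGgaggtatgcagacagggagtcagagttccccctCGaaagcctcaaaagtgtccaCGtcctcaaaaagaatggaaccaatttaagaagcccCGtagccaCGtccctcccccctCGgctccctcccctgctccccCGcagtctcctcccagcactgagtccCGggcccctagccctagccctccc

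These letters were placed on the deposited GRCm39 sites by the spacing of their CpGs alone. All 11 listed CpGs of the stretch fell on a CpG of the sequence and 0 fell off it, while the next best position had 3 on and 9 off. The placed stretch is chr6:4505368-4505617 in the tile 4 kb into the window. The Twist1 and Prrx1 sequences could not be placed in this way and were not analysed further.

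In iPSCs the Col1a2 promoter was nearly free of methylation, and at D12 it was not. On the strand listed in most libraries (R), the methylated share over the 11 CpGs was 1.99% and 1.24% in the 2 iPSC libraries and 25.0% and 29.1% in the 2 D12 libraries. In D0 the 2 libraries stood apart, at 27.7% and 1.27%. The deepest of the 11 sites had 54 and 22 reads in D0, 22 and 21 in D12, and 30 and 25 in iPSC. At that depth the 95% Wilson interval ran from 17.6% to 40.9% in D0 replicate 1 and from 0% to 14.9% in D0 replicate 2. In the intermediates the level ranged widely between libraries, from 0% to 32.6%. It was 15.4% and 8.03% in D2, 7.14% and 32.0% in D4, 17.4% and 32.6% in D6, 0% and 21.3% in D8, and 31.7% and 0% in D10. In 5 of these 10 libraries only 2 of the 11 CpGs reached 10 reads. The share of 0% was among them, where it allows up to 30.0% in D8 and 16.7% in D10. On the other strand (F), 7 libraries listed sites here. The share on that strand was 7.23% in D0 replicate 1 over 6 CpGs and 42.4% in D12 replicate 1 over 11 CpGs. The other 5 libraries listed 2 CpGs each, at 62.5% and 23.3% in D4, 0% in D8 replicate 2, 35.7% in D12 replicate 2 and 20.0% in iPSC replicate 2, with 10 to 16 reads at the deepest site. The strands differed within a library, most in D4 replicate 1 (62.5% on F over 2 CpGs, 7.14% on R over 11). They also differed in D0 replicate 1, D8 replicate 2, iPSC replicate 2 and D12 replicate 1 (42.4% on F and 25.0% on R, each over 11 CpGs). The range given above for the intermediates thus holds for the R strand only. The low iPSC level was therefore measured over all 11 CpGs on the R strand only.

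**Figure D1:**
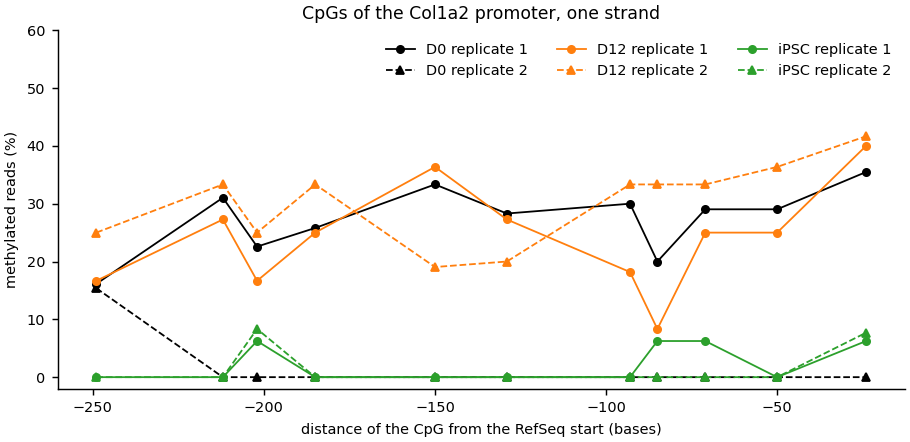
Methylated share of reads (%) at each of the 11 CpGs of the Col1a2 promoter on the R strand, against distance from the RefSeq start in bases, in each library of D0, D12 and iPSC. The D12 libraries and D0 replicate 1 lie above 8% at every CpG, while the iPSC libraries and, past its first CpG, D0 replicate 2 lie below 10%.

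The promoter tile had only 2 common sites over all 16 libraries and so was not among the 18 tested tiles. With sites common to the libraries of just 2 groups, it held 12 sites, mostly those of the R strand described above, and could be tested. Each such fit held only the libraries of its 2 groups and used edgeR's quasi-likelihood test with Benjamini-Hochberg adjustment over all its tiles. The fit of D12 and iPSC thus leaves the other groups out of its spread, and libraries of D0, D8 and D10 differed widely at these CpGs. The level was then 27.2% ± 3.09 (SD, n = 2) in D12 and 1.5% ± 0.491 in iPSC, a difference of -25.7 points with an adjusted p of 0.00117. It was called lower in iPSC, where 1.68% of all 124117 tiles of that fit were called lower and 76.8% higher. D0, at 14.5% ± 18.9, was distinguished neither from D12 (adjusted p = 0.362) nor from iPSC (adjusted p = 0.265). The Col1a2 tiles at 3 and 19 kb differed in the opposite direction between D12 and iPSC, as given below; the difference between tiles was not tested.

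Over the common sites of each window, the collagen genes and Thy1 lost most of their methylation by D12 and were near the fibroblast level in iPSCs. At these sites Twist1 and Prrx1 were low in every group. The level of a window is the methylated share of all reads at its common sites. Col1a1 was at 33% ± 0.723 (SD, n = 2) in D0, 10.8% ± 3.20 in D12 and 39.5% ± 1.83 in iPSC. Col1a2 was at 36.8% ± 2.40 in D0, 11.3% ± 0.972 in D12 and 33.2% ± 0.295 in iPSC. Thy1 was at 36.9% ± 0.63 in D0, 14.1% ± 4.39 in D12 and 34.6% ± 0.732 in iPSC. In all 3 genes both D12 libraries lay below both D0 libraries and both iPSC libraries. Prrx1 was at 11% ± 4.99 in D0, 4.38% ± 0.374 in D12 and 10.0% ± 0.432 in iPSC. Of its 62 common sites, 35 lay in 1 low tile, while its tile at 25 kb was at 65.4% in D0, 16.4% in D12 and 61.9% in iPSC. Twist1 was at 7.01% ± 5.93 in D0, 1.93% ± 0.797 in D12 and 1.33% ± 0.325 in iPSC. The Twist1 level in D0 rested on 1 library (11.2% against 2.82%). By level in D0 the windows came in the order Thy1, Col1a2, Col1a1, Prrx1 and Twist1, and the top pair and the bottom pair each overlapped between libraries. This order holds for the common sites: over all sites listed in a library the D0 level was 48.5% ± 0.368 at Thy1, 39.7% ± 0.24 at Col1a1, 35.8% ± 7.08 at Col1a2, 17% ± 3.10 at Prrx1 and 7.14% ± 3.26 at Twist1, with Col1a1 before Col1a2. An exact permutation test of 2 against 2 libraries cannot give a p below 0.33, so these window differences carry no test of their own. Over all common sites of the genome the mean was 51.2% in D0, 17.8% in D12 and 47.9% in iPSC.

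**Figure D2:**
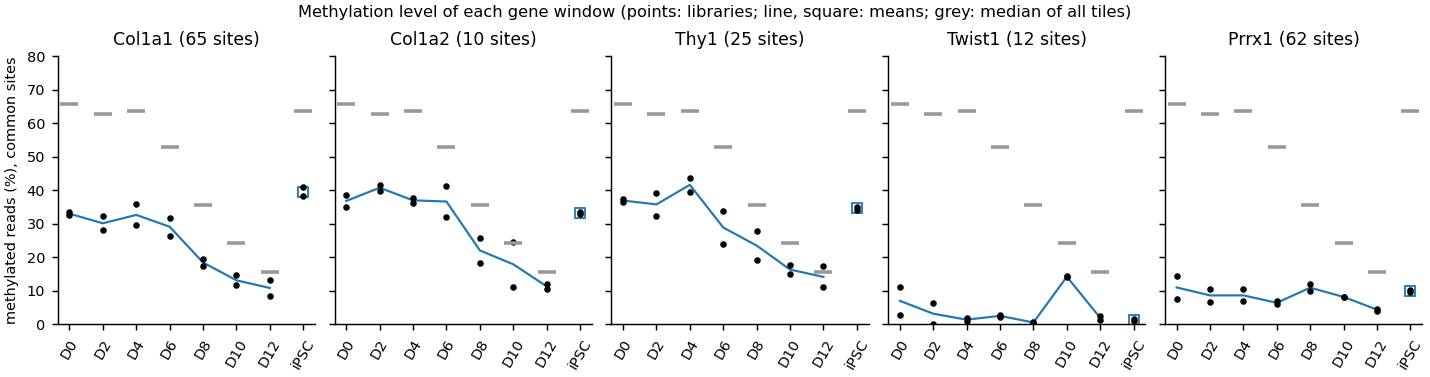
Methylated share of reads (%) at the common sites of each gene window by group; points are the 2 libraries, the line and the open square are their means, and grey bars are the median of all tested tiles. Col1a1, Col1a2 and Thy1 fall from D6 to D12 and lie near the D0 level in iPSCs, and Twist1 and Prrx1 stay below 15% in every group.

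Between D0 and D12, tiles of Col1a1 that were methylated in fibroblasts fell steeply, and its low tiles, which had the most CpGs listed, were not called. Of the 18 tested tiles, 11 were called lower and 0 higher, at an adjusted p under 0.05 and a difference of at least 10 percentage points; 13 had an unadjusted p under 0.05. Genome-wide, 82.7% of tiles were called lower and 0.649% higher under the same rule, so the share of the windows was not above the background. The median difference was -30.8 points over the 18 tiles and -45.9 over all tiles. Col1a1 contributed 7 of its 9 tiles to the 11, Thy1 2 of 3, Prrx1 1 of 4, Col1a2 1 of 1 and Twist1 0 of 1.

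In Col1a1, the tile with the greatest loss was chr11:94837001-94838000, 14 kb into the window, with 4 common sites. It read 75.0% and 77.1% in the D0 libraries, 5.48% and 25.5% in D12, and 80.6% and 69.3% in iPSC. Both D12 libraries lay far below the D0 and iPSC libraries, although the D12 libraries differed from each other. The fall from D0 was 60.6 points (-60.6, SE 10.1, adjusted p = 0.000154), and the mean in iPSC (74.9% ± 8.02) differed from D0 by -1.12 points (adjusted p = 0.967). The 4 tiles that follow it, 15 to 18 kb into the window, differed from D0 by -55.9 to -39.0 points, all called lower, and kept between 15.5% and 33% in D12. The highest of all the tested tiles was the last of these, chr11:94841001-94842000, at 88.9% ± 4.70 in D0, 33% ± 1.26 in D12 and 83.6% ± 13.1 in iPSC. Nearer the start of the window, 2 tiles of intermediate level were almost emptied. The tile at 9 kb, with 14 common sites, went from 36.0% ± 0.573 to 2.58% ± 1.21 (adjusted p = 7.34e-06), and that at 12 kb from 29.4% ± 4.96 to 1.37% ± 1.93 (adjusted p = 7.02e-05).

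The first 2 tested tiles of Col1a1, at 4 and 5 kb, had the most CpGs listed in the window, 27 and 28, and were low in D0. The tile at 4 kb, chr11:94827001-94828000, has the most common sites of the gene (16) and read 10.2% and 6.59% in D0, 26.8% and 4.76% in D12 and 13.7% and 31.0% in iPSC. Its libraries overlapped between D0 and D12, and its difference of 7.36 points (SE 11.2) was not called (adjusted p = 0.645). In D10 it read 25.0% and 26.3%, above both D0 libraries. That difference of 17.2 points was not called (adjusted p = 0.242), but it was when those 2 groups were fitted alone (adjusted p = 0.00557). The tile at 5 kb was at 4.68% ± 0.495 in D0, 11.9% ± 1.82 in D12 and 4.66% ± 0.630 in iPSC. Its D12 libraries were above those of D0 and iPSC, with an adjusted p of 0.0349 against D0, but the difference of 7.19 points is below the 10 points that a call needs.

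The only tile called between iPSC and D0 was also in Col1a1. At chr11:94839001-94840000, 16 kb into the window and with 4 common sites, the D0 libraries read 55.2% and 55.3%, the D12 libraries 13.9% and 18.6%, and the iPSC libraries 72.8% and 72.7%. The level in iPSC was higher than in D0 by 17.5 points (SE 0.0923, adjusted p = 0.0465). This SE comes from library pairs with SDs of 0.115 and 0.0624 points, far below the counting error at the depth of the tile, whose deepest site had as few as 24 reads in a library. The call was lost when any 1 of the 4 libraries was left out (adjusted p from 0.165 to 0.199), with a replicate block (adjusted p = 0.0579) and with strands merged (adjusted p = 0.0577), with the difference between 17.5 and 17.8 points in each case. The call was kept with a quasi-binomial model, with sites common to the 2 groups and with the 2 groups fitted alone. The Col1a1 tiles at 4, 9 and 15 kb were also higher in iPSC, by 14.0, 11.6 and 12.5 points, without a call (adjusted p = 0.612, 0.439 and 0.288), while the differences at 14, 17 and 18 kb ran from -5.79 to -1.12 points.

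For Col1a2, the tested tile was chr6:4504001-4505000, the tile before the promoter tile, with 6 common sites. It read 38.0% and 35.3% in D0, 7.52% and 9.52% in D12, and 26.5% and 26.2% in iPSC. The 3 groups did not overlap. The level fell by 28.1 points from D0 to D12 (-28.1, SE 1.70, adjusted p = 0.000378) and was 17.8 points higher in iPSC than in D12 (adjusted p = 0.00366). Between iPSC and D0 the difference was -10.3 points (SE 1.38), which was not called (adjusted p = 0.458). Another tile of the gene, 19 kb into the window, had too few common sites over all libraries but could be tested with the sites common to 2 groups. It was higher in iPSC, at 67.4% ± 1.38, than in D12, at 24.9% ± 17.8 (adjusted p = 0.020). Against D0, at 51.9% ± 9.85, neither D12 (-28.0 points, adjusted p = 0.0994) nor iPSC (15.0 points, adjusted p = 0.141) was called. So the promoter was lower in iPSC than in D12, while the tiles at 3 and 19 kb were higher.

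Thy1 held a tile that was called lower than D0 in each group of intermediates from D6 on. At chr9:43959001-43960000, 9 kb into the window and with 7 common sites, the D0 libraries read 68.7% and 70.7%, the D6 libraries 45.2% and 51.5%, the D12 libraries 15.7% and 17.4%, and the iPSC libraries 61.1% and 57.8%. No 2 of these groups overlapped. The loss by D12 was 53.1 points (-53.1, SE 1.31) with an adjusted p of 1.61e-07, the smallest among the 18 tiles in that comparison. The level in iPSC differed from D0 by -10.3 points (SE 1.93), which was not called (adjusted p = 0.0887), though a quasi-binomial model called it (adjusted p = 0.0259). The tile at 8 kb, with 3 common sites, was nearly emptied, from 47.6% ± 3.4 in D0 to 1.33% ± 1.89 in D12, and read 60.5% and 42.4% in iPSC. The tile at 5 kb, chr9:43955001-43956000, has the most common sites of the gene (12) and was low throughout, at 11.6% ± 2.59 in D0, 10.5% ± 4.60 in D12 and 13.6% ± 1.64 in iPSC. Its highest group was D4, with 22.4% and 20.9%.

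Twist1 had no call in any comparison. Its tested tile, chr12:34007001-34008000, has 30 CpGs listed and 11 common sites. It read 11.6% and 1.82% in D0, 5.38% and 0% in D2, 0% in both libraries of D4 and of D8, 0% and 0.522% in D6, and 0% and 0.617% in D12. It then read 0.847% and 0% in iPSC. The deepest site had 24 or more reads, so a share of 0% allows from 5.77% to 11.5% depending on the library. Over all sites listed in the window, which differ between libraries, D8 was at 12.4% ± 16.3 and D10 at 12.7% ± 4.16. At the common sites of the tile, the exception to the low levels was D10, where both libraries were raised, at 12.7% and 14.9%. Both lay above the D0 libraries and above all other libraries of the tile, but the difference from D0 was 7.08 points (SE 5.02) and was not called (adjusted p = 0.321). D0 replicate 1 came closest to them, and without D0 replicate 2 the D12 level was called lower than D0 (adjusted p = 0.0176).

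Prrx1 combined a highly methylated tile with an intermediate tile and a pair of low ones. At chr1:163095001-163096000, 25 kb into the window and with 6 common sites, the D0 libraries read 62.3% and 68.6%, those of D2 39.8% and 33.6%, those of D4 50.0% and 49.2%, and those of D6 28.0% and 32.4%. The later groups read 41.8% and 39.3% in D8, 10.2% and 31.7% in D10, 14.0% and 18.8% in D12 and 66.7% and 57.1% in iPSC. Every intermediate library lay below both D0 libraries from D2 on, and the order of the days was not steady. The loss by D12 was 49.0 points (-49.0, SE 3.99, adjusted p = 9.01e-05), and iPSC differed from D0 by -3.53 points (SE 5.73, adjusted p = 0.889). The tile at 66 kb was at 23.1% ± 9.08 in D0 and 12.7% ± 1.16 in D12 and was not called (adjusted p = 0.156). Its 2 libraries of D8 read 14.4% and 46.8%, the widest gap between replicates among the tested tiles, and without D8 replicate 1 the level of D8 was called higher than D0 (23.7 points, adjusted p = 0.020).

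The remaining Prrx1 tiles, at 69 and 72 kb, were low. The first, chr1:163139001-163140000, holds 35 common sites, more than any other tested tile of the 5 windows. It was at 3.50% ± 3.82 in D0, 2.54% ± 0.757 in D12 and 2.59% ± 0.479 in iPSC, and its highest group was D8, with 8.55% and 8.17%. The other, chr1:163142001-163143000, with 8 common sites, read 9.36% and 2.51% in D0, 3.60% and 2.47% in D12, and 10.6% and 16.2% in iPSC. Both iPSC libraries were above those of D12, by 10.4 points on average (SE 2.87, adjusted p = 0.0248), which counts as a call. The difference fell below 10 points, and the call was lost, with strands merged (9.13 points), with sites common to those 2 groups (9.21) and without D12 replicate 2 (9.81) or iPSC replicate 2 (7.55).

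**Figure D3:**
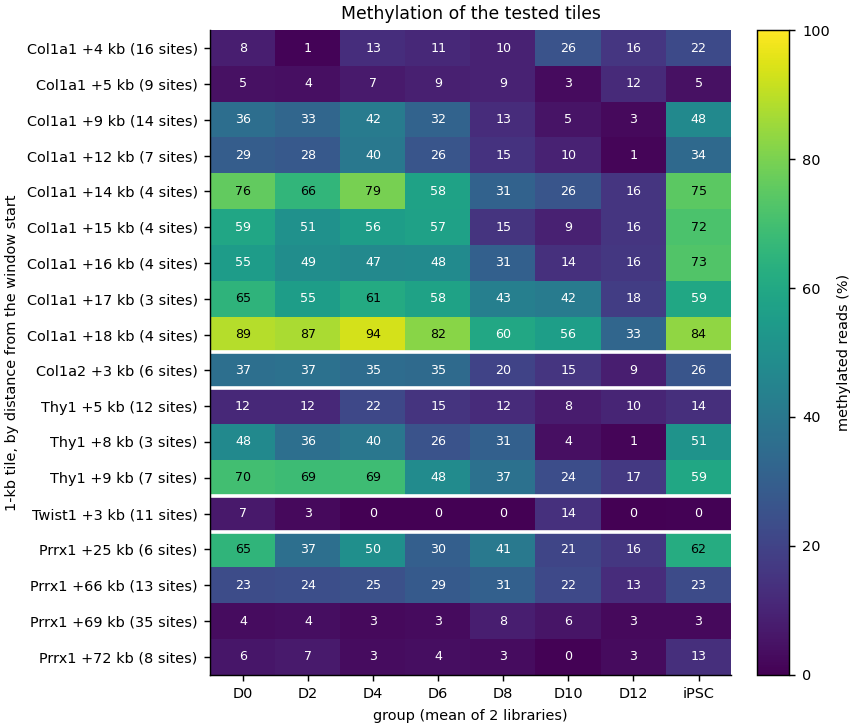
Mean methylated share of reads (%, colour and number) in each of the 18 tested tiles, rows, by group, columns; tiles are named by gene and distance in kb from the start of the window, with the number of common sites. Tiles above 20% in D0 are darker in D12 and brighter again in iPSC, while the 4 tiles with 20 or more CpGs listed are under 15% in all groups except the Col1a1 tile at 4 kb, which has 25.6% in D10, 15.8% in D12 and 22.4% in iPSC.

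The tiles were then grouped by their level in D0. Of the 12 tiles at 20% or more in D0, 11 were called lower at D12; of the 80044 such tiles genome-wide the share was 96.8%. Of the 6 tiles under 20%, 0 were called in either direction, against 3.85% lower and 4.15% higher genome-wide. In 5 of these 6 the D0 level was below 10%, where a fall of 10 points, and so a call, is not possible. The share of the D0 level left at D12 had a median of 24.4% over the 12 tiles, from 2.80% to 55.2%, and of 26.5% over all such tiles. In 3 of the 12 the share left was under the genome-wide 5th percentile of 9.98%: 2.80% at 8 kb in Thy1, 4.65% at 12 kb in Col1a1 and 7.17% at 9 kb in Col1a1. These 3 were picked out after their values were seen. The number of CpGs listed went with the level: the 4 tiles with 20 or more CpGs listed (2 of Col1a1 and 1 each of Twist1 and Prrx1) were under 15% in D0, with a median of 5.70%. This number depends on where reads fell and is not the CpG density of the sequence. Genome-wide 61.9% of tiles with 20 or more CpGs listed were under 15%. The 14 tiles with fewer CpGs had a median of 51.4% in D0, 14.1% in D12 and 55.4% in iPSC.

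**Figure D4:**
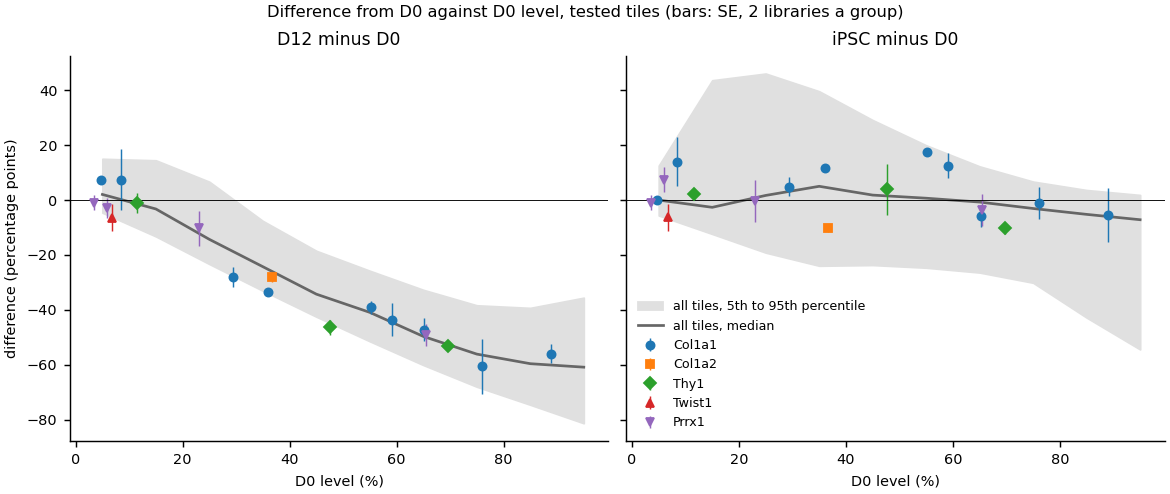
Difference from D0 in percentage points (left D12, right iPSC) against the D0 level (%) for the 18 tested tiles; bars are the SE of the difference over 2 libraries a group, and the line and grey band are the median and the 5th to 95th percentile of all tested tiles. On the left most tiles lie within the band. The Col1a1 tile at 12 kb, the Thy1 tile at 8 kb and the Twist1 tile lie below the band. The Col1a1 tile at 9 kb is near its lower edge. On the right the differences run from -10.3 to 17.5 points.

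By time, no tile of the windows was called in D2 or D4, 2 were called lower in D6 and 11 in D10. Against D0, 0 of 18 tiles were called in D2, with 1 at an unadjusted p under 0.05, and genome-wide 0.0488% were called lower and 0% higher. In D4 0 of 18 were called, with 2 at an unadjusted p under 0.05, against 0.0763% lower and 0.00424% higher. In D6, 2 of 18 were called lower, the Thy1 tile at 9 kb (-21.3 points, adjusted p = 0.00671) and the Prrx1 tile at 25 kb (-35.2 points, adjusted p = 0.0198), and 0 higher. The background in D6 was 21.3% lower and 0.104% higher. The count in D6 fell to 1 without D0 replicate 1, D6 replicate 1 or D6 replicate 2, and to 0 without D0 replicate 2. In D8, 8 were called lower and 0 higher, with a background of 72.3% and 0.544%, and in D10, 11 were called lower and 0 higher, with a background of 81.6% and 0.201%. All comparisons with D0 share the same 2 D0 libraries.

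Taking the first day on which at least 50% of the loss at D12 had occurred, 8 of the 12 tiles that lost 10 points or more reached it on day 8. Genome-wide 59.4% of 79430 such tiles did so on that day. The Prrx1 tile at 25 kb reached it on day 2, with 36.7% ± 4.40 after 65.4% ± 4.51, as did 2.21% of tiles genome-wide. That drop from D0 had no call, as none of the 18 tiles had in D2. The Thy1 tile at 8 kb reached it on day 10, and the Col1a1 tile at 17 kb and the Prrx1 tile at 66 kb on day 12. At 17 kb in Col1a1 the level was still 41.8% ± 4.33 in D10 and fell to 18% ± 3.71 in D12. At 15 kb, the Col1a1 level was already 14.9% ± 3.50 in D8; the difference in course between these tiles was not tested.

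In iPSCs, the tiles that had fallen were near their level in fibroblasts. Against D12, 12 of 18 tiles were called higher and 0 lower, where the background was 79.8% higher and 1.48% lower. The 12 were 7 tiles of Col1a1, 1 of Col1a2, 2 of Thy1 and 2 of Prrx1, with a median difference of 37.2 points over the 18 tiles and 43.7 over all tiles. Against D0, 1 of 18 was called higher (the Col1a1 tile described above) and 0 lower, with 2 at an unadjusted p under 0.05; the background was 4.02% higher and 9.42% lower. The median difference from D0 was -0.185 points, and -1.76 over all tiles. Over the 12 tiles at 20% or more in D0, the iPSC level was 71.8% to 132% of the D0 level, with a median of 98.5%, and genome-wide the median was 96.9%. D0 and iPSC differ in culture and in the feeder cells, and the part of feeder DNA in the iPSC values was not tested.

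**Figure D5:**
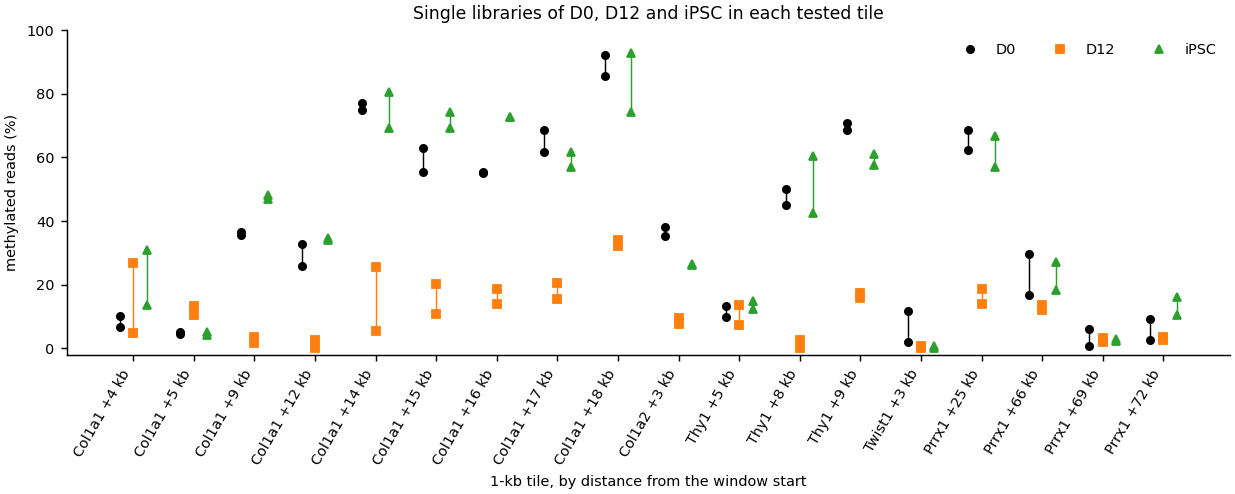
Methylated share of reads (%) in every single library of D0, D12 and iPSC for the 18 tested tiles, named as in the plot of tile means; a line joins the 2 libraries of a group. In the 11 tiles called lower at D12, and in the Prrx1 tile at 66 kb, which was not called, both D12 libraries lie below the D0 and iPSC libraries; the low Col1a1 tile at 4 kb has libraries from 4.76% to 31.0%.

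Tiles beyond the 18 were reached when each comparison used the sites common to its own 2 groups, fitted without the other groups. Between D0 and D12 this added 8 tiles, of which 3 were called lower and 0 higher, and 14 of 26 tiles in all were called lower, with a background of 78.5% lower and 1.24% higher. The 3 were the Col1a1 tile at 13 kb, from 71.9% ± 1.05 to 18.5% ± 10.5 (adjusted p = 0.00364), the Thy1 tile at 6 kb, from 78.5% ± 1.59 to 19.8% ± 1.40 (adjusted p = 0.000887), and the Thy1 tile at 3 kb, from 62.2% ± 7.17 to 38.6% ± 5.50 (adjusted p = 0.0256). Between D12 and iPSC, 7 tiles were added. The Col1a1 tile at 13 kb and the Thy1 tile at 6 kb were called higher in iPSC, at 76.1% ± 3.23 and 75.3% ± 2.85, as was the Col1a2 tile at 19 kb, and the Col1a2 promoter tile was called lower. The Col1a1 tile at 5 kb, already tested above, was called lower in that fit as well (-10.9 points, adjusted p = 0.00417). The Thy1 tile at 3 kb was not called (52.7% ± 8.82 in iPSC, adjusted p = 0.228). Between D0 and iPSC, 0 of the 8 added tiles were called. Of all 26 tiles of that fit, 1 was called higher in iPSC and 0 lower, against a background of 5.14% higher and 9.61% lower. The 1 was the Col1a1 tile at 16 kb (20.7 points, adjusted p = 0.0210). Another tile of Twist1, at 2 kb, was at 11.4% ± 3.52 in D0 and 12.8% ± 6.48 in D12 and was not called (adjusted p = 0.851).

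Within the tiles that fell, single sites, each 1 strand of a CpG, differed widely. Of the 12 tiles at 20% or more in D0, 9 held at least 1 site under 15%, 13 of 75 sites in all, and 7 of these 9 also held a site over 70%. In the Prrx1 tile at 25 kb, 2 of 6 sites were low, at 8.08% on average in iPSC, and the other 4 were at 92.6% ± 2.20 in D0, 19.3% ± 2.72 in D12 and 88.6% ± 3.44 in iPSC. In the Thy1 tile at 9 kb, 1 of 7 sites was low (9.25% in iPSC), and the others were at 78.7% ± 0.582 in D0, 18.1% ± 1.03 in D12 and 67.4% ± 3.67 in iPSC. In the Col1a1 tile at 16 kb, 1 of 4 was low (16.3% in iPSC), and the others went from 66.5% ± 0.256 in D0 to 86.0% ± 1.15 in iPSC. Over the 9 tiles, the mean of the low sites ran from 0% to 21.7% in iPSC and from 1.47% to 10.5% in D12. The 21.7% was in the Col1a1 tile at 9 kb, where 3 of 14 sites were low and 1 reached a group mean of 55.0%. The level of these tiles is thus a mean over unlike sites. A C filled in at a fragment end would be read as unmethylated, and whether the low sites are such ends was not tested. The sites were sorted by their D0 level, so their D0 values are a description.

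Tiles elsewhere whose 8 group means came closest to those of a member were found by Euclidean distance over the 8 means. For the Col1a1 tile at 16 kb, the nearest was chr7:139030001-139031000, at a distance of 7.27 points, with 55.5% in D0, 18.4% in D12 and 69.3% in iPSC. For the Col1a2 tile it was chr8:126396001-126397000 (6.91 points), for the Thy1 tile at 9 kb chr7:93470001-93471000 (5.57 points) and for the Twist1 tile chr4:150939001-150940000 (4.87 points). The last of these shared the raised level in D10, at 9.73%, beside 0% in D12. With 94337 tiles to choose from, a close match is a description only, and what lies at these places was not analysed here.

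Replicates of the tested tiles differed on average by 4.65 points (D4) to 9.28 points (D8). The correlation between replicates across the 18 tiles ran from 0.980 in D0 to 0.634 in D12; it is across tiles, which are not independent replicates. Tile levels spanned a narrower range in D12, and the mean difference between replicates was 5.13 points in D12 and 4.99 in D0. The lower correlation in D12 is therefore no measure of poorer agreement. The deepest site of a tile had between 10 and 224 reads in a library, with a median of 44, at which the 95% Wilson interval of 1 library spanned a median of 21.8 points. Summed reads overstate the depth, because 74.7% of neighbouring sites within 100 bases on a strand had coverage within 10% of each other and were read largely by the same fragments. The labels name no molecular identifiers, so these intervals and the limits for shares of 0% cover counting error only.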

How the data were processed

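RRBS libraries of 8 groups, 2 per group, were deposited as methylKit-style tables of CpGs, 1 per library. The authors' tables give, per the file headers, coverage, a count of reads, and the percent of reads with C and with T at each strand of a CpG. Sites under 10 reads are not listed. The submitters' processing notes name GRCm39 as the build and list methylKit, Bowtie2, Bismark 0.23.0 and fastp 0.20.1. Trimming settings, duplicate handling and the treatment of filled-in end cytosines were not given in the sources used here. Per the labels' protocols, ends were filled with unmethylated dCTP before adapter ligation and libraries had 15 PCR cycles and reads of 150 bases, so a filled-in C left at a fragment end would be read as unmethylated.

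Here, coverage times percent gave whole methylated reads at each listed site. The libraries held 39011213 to 107834007 reads summed over sites, and 873038 of 3179510 sites had at least 10 reads in all 16 libraries. Methylated and unmethylated counts were summed over these common sites in 1-kb tiles with at least 3 of them. All 94337 tiles genome-wide were tested in 1 fit with edgeR 4.0.16 (quasi-likelihood, R 4.3.3), with an effect per library, a methylation coefficient per group, 8 residual degrees of freedom and Benjamini-Hochberg adjustment over all tiles. A tile was called at an adjusted p under 0.05 and a difference of group means of at least 10 points. Fits were tested on simulated data first. With few tiles changed, most of the changes set there missed the adjusted threshold. In D12 against D0, 82.7% of all tiles were called lower, so the share missed in the simulation does not carry over to that comparison. A difference without a call is not shown to be absent. SEs are those of the difference of group means. Levels are methylated over all reads, and intervals use the deepest site of a tile.

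The tiles described singly were, per gene, those with the most common sites, the greatest difference at D12 and the greatest difference in iPSCs, and any tile called between iPSC and D0, called higher at D12 or called lower in iPSC than in D12; the others are given as ranges or beside them, and some were picked after their values were seen. The genes, windows and comparisons were chosen with earlier results of these data known. Alternatives were a quasi-binomial model, a replicate block, at least 20 reads per site, merged strands, sites common to the 2 groups compared, the 2 groups fitted alone, a minimum of 25 points and leaving out each library. Gene models, promoters of Col1a1 and Thy1 and further fibroblast genes were not analysed here, since the gene tables at hand are of GRCm38.p6.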

Additional observations from a re-analysis of the deposited data

How the results depend on the processing

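The count of tiles lower at D12 than D0 (11 of 18) was 3 of 7 testable tiles with at least 20 reads per site, and 11 or 12 with any 1 library left out. With at least 20 reads, the tiles higher in iPSC than in D12 went from 12 to 4 and those lower in D8 from 8 to 3. Those lower in D10 went from 11 to 3 and those lower in D6 from 2 to 1. Only 7 tiles could be tested in that setting, and all 56 of their results over the comparisons kept the call, or lack of one, of the main fit. With a minimum of 25 points, the tiles lower in D8 were 4 and those lower in D6 were 1. With sites common to the 2 groups, the tiles lower in D6 were 0. The Thy1 tile at 9 kb and the Prrx1 tile at 25 kb both had an edgeR adjusted p of 0.055 there. In that setting the tiles lower in iPSC than in D12 were 2, where 1.68% of all tiles were called lower, and those higher in D10 were 1. Genome-wide shares for the other counts under alternative settings are not given here, so those counts cannot be set against a background. With strands merged, the tiles higher in D8 were 2 and those lower in iPSC than in D12 were 1. With the 2 groups fitted alone, the tiles higher in D10 were 1. The single tile higher in iPSC than in D0 was lost (0) with merged strands, a minimum of 25 points or any 1 library left out. It was kept (1) with the quasi-binomial model, sites common to the 2 groups and the 2 groups fitted alone. With at least 20 reads it could not be tested. The quasi-binomial model called 1 tile lower in iPSC than in D0. The cause of the changes in settings other than at least 20 reads was not tested. Leaving out 1 library gave 0 to 1 tiles lower in D6 and 0 to 1 higher in D8. The Prrx1 window differed between iPSC and D0 by -0.965 points, by 3.41 with at least 20 reads, and by -4.49 to 2.56 with 1 library left out, so its sign is not settled. Twist1 had no site with 20 reads in all libraries, so that alternative gave no value for it.

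Replicate numbers are shared between groups, but the labels do not say that a number marks a shared culture, and same-numbered libraries did not deviate together (r from -0.0144 to 0.00778 over 28 pairs of groups). With a replicate block, the tile higher in iPSC than in D0 was lost (0 called), and the other counts of calls stayed within 1.5 times. Depth limits single libraries most: at the deepest site of a tile, with a median of 44 reads, the 95% interval of 1 library spans a median of 21.8 points.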
